A study of Mus musculus with 3 samples.

Results

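The dual-specificity MAP kinase phosphatases are a small family of enzymes that switch MAP kinases off. Their transcripts were followed here in cultured mouse peritoneal macrophages given a triglyceride load with or without the lipase inhibitor ANGPTL4. The 10 genes described are Dusp1, Dusp2, Dusp4, Dusp5, Dusp6, Dusp7, Dusp8, Dusp10, Dusp14 and Dusp16, chosen by symbol in the array's annotation, out of 19938 genes with a probe set of their own. All 10 matched a RefSeq gene by identifier and symbol. Each was read from a single probe set, and for Dusp8, the only member with more than 1, from the probe set with the highest mean.

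A MAP kinase is activated when an upstream kinase phosphorylates a threonine and a tyrosine in its activation loop, and a phosphatase of this family removes both phosphates. The classical members carry a domain that docks onto particular kinases, which gives each its preference for ERK, p38 or JNK, and many are themselves transcribed in response to MAP kinase signalling, so that they act as feedback inhibitors. In macrophages the family is best known for Dusp1, which limits p38 and JNK activity and cytokine output after stimulation through Toll-like receptors.

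All cells came from male Angptl4-/- mice of the C57Bl/6J strain, 3 days after an intraperitoneal injection of 1 mL of 4% thioglycollate, an irritant that recruits macrophages, and had spent 2 days in culture as adherent cells. One group received PBS, one received intralipid (an emulsion of triglyceride droplets) at 0.5 mM triglyceride for 6 h, and one received the same intralipid with 2.5 µg/mL recombinant mouse ANGPTL4, given 1.5 h ahead. The labels do not say whether the other groups had a mock incubation of that length, so the effects of ANGPTL4 and of such a step cannot be told apart. ANGPTL4 inhibits lipoprotein lipase, the enzyme that frees fatty acids from triglyceride particles, and the knockout cells cannot supply it themselves. Each group was 1 Affymetrix array of RNA pooled from 3 samples, and the labels do not say whether those came from separate mice. The labels name no age.

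The design has 1 array per group, which gives no measure of how much cultures of a group vary. No test was run, no p-value is given, and every difference below lies between 2 particular arrays and has no replicate check. Values are log2 expression as deposited, and folds are the same values taken back to the linear scale. A gene was counted as higher or lower where the fold was at least 2 and the brighter array reached a floor, the median of all probe sets with 1 gene symbol, which lay at 5.00 (PBS), 4.98 (intralipid) and 4.99 (intralipid plus ANGPTL4). The array with intralipid plus ANGPTL4 is called the ANGPTL4 array from here on. All 10 members reached the floor on all 3 arrays. Brightness differs between probes, so levels are compared within a gene and never between genes. The central 68% of genes differed by -0.29 to 0.11 log2 units between intralipid and PBS, by -0.10 to 0.36 between intralipid plus ANGPTL4 and intralipid, and by -0.06 to 0.13 between intralipid plus ANGPTL4 and PBS. Exactly identical values on both arrays were held by 3202 of 10018, 3054 of 10025 and 3990 of 9960 genes, in the same order. These ties enter the ranges above and the medians over all genes below. In the first comparison 23.5% of genes were higher and 44.5% lower. The second had 46.5% and 23.1%, and the third 35.5% and 24.5%.

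The labelled cell type was checked against its markers. All 13 measured macrophage markers reached the floor on each array, and their summed linear level was 44194 (PBS), 45446 (intralipid) and 46874 (intralipid plus ANGPTL4). No measured marker reached it on any array for mast cells (8 genes), erythroid cells (2), B cells (7) or T and NK cells (11). Of 8 fibroblast markers, 5 did (Col1a1, Col1a2, Col3a1, Pdgfra and Dcn), with a summed level of 2347, 2335 and 2322 in the same order. Neutrophil markers had 2 of 11 past the floor (S100a8 and Mmp8, summed level of the list 420, 418 and 416), mesothelial markers 2 of 6 (Krt8 and Wt1, 163, 154 and 136), eosinophil markers 1 of 6 (Siglecf, 229, 205 and 229) and dendritic cell markers 1 of 7 (Clec9a on the intralipid array, 120, 137 and 115). The part of these cells in the results below was not tested. In a mixed culture, fewer cells of a type and less RNA per cell cannot be told apart. The deleted gene, Angptl4, had a log2 value of 4.92 on each array, and no wild-type array was analysed here to set it against.

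With intralipid, 6 of the 10 phosphatase transcripts exceeded their PBS level at least 2-fold and 1 lay below it by at least as much. The higher ones were Dusp10 (15.1-fold), Dusp1 (12.6-fold), Dusp5 (5.18-fold), Dusp4 (5.17-fold), Dusp2 (2.42-fold) and Dusp8 (2.10-fold). Dusp7, a cytoplasmic phosphatase of ERK, was 2.46-fold lower. Over all 10018 genes at the floor on either array, 2.52% were counted higher and 1.33% lower. The median difference of the 10 members was 1.17 log2 units, and that of all these genes was 0.00. With ANGPTL4 added, 5 of the 10 were at least 2-fold lower than on the intralipid array and 0 were higher, beside 2.30% lower and 2.53% higher of 10025 genes. The members' median was -1.11, against 0.00 for all genes. Both comparisons use the intralipid array, so a high value on that array enters each of them.

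Set against PBS, the array with intralipid plus ANGPTL4 left 1 of the 10 members at least 2-fold apart. That was Dusp4, which was 2.64-fold higher, and 0 members were lower. Over 9960 genes, 0.843% were higher and 0.0402% lower in this comparison. The members' median was 0.01 log2 units, with 5 members above PBS, 4 below and Dusp5 at an identical value.

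**Figure D1:**
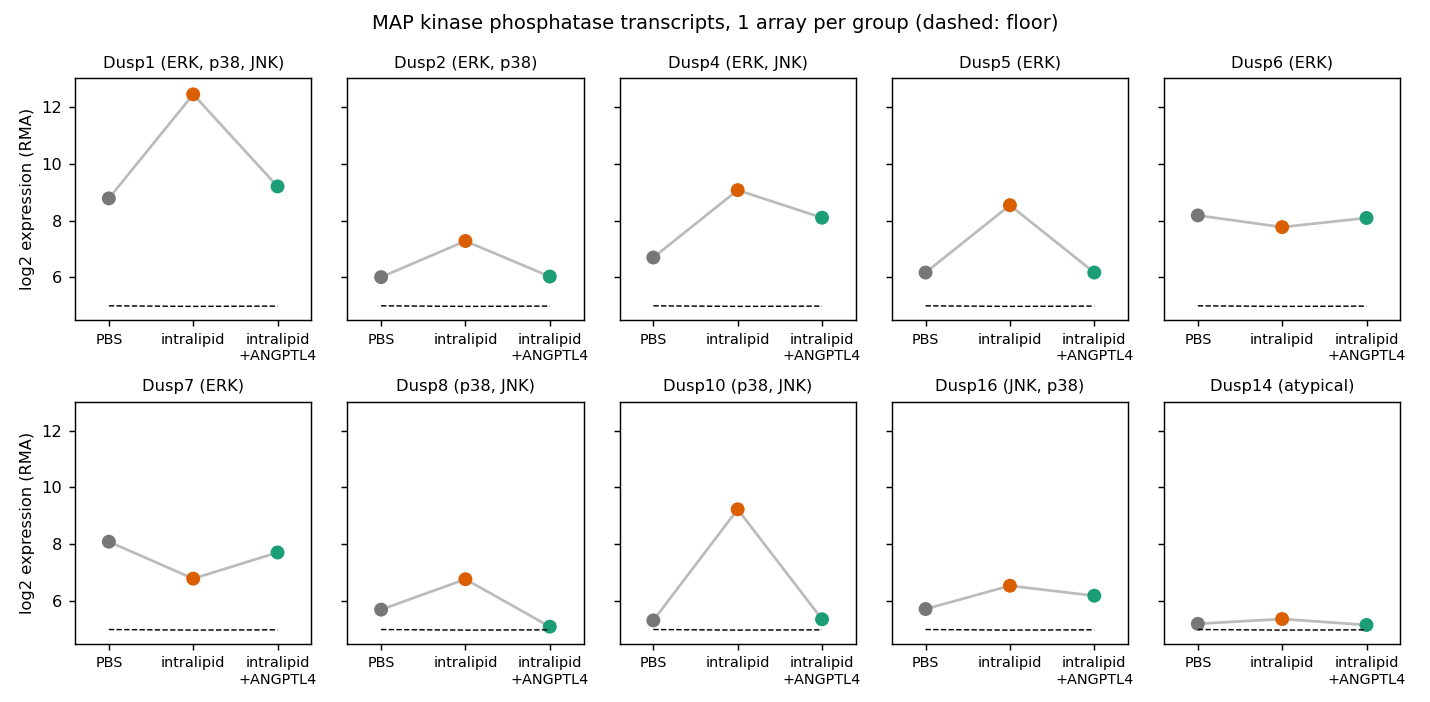
Log2 expression (vertical axis) of each phosphatase on the PBS, intralipid and intralipid plus ANGPTL4 arrays (horizontal axis), 1 point per array with no replicates, kinases preferred by each enzyme in brackets, and the floor as a dashed line. Dusp1, Dusp5 and Dusp10 peaked on the intralipid array, at 12.44, 8.54 and 9.23, Dusp4 stayed at 8.10 with ANGPTL4, and Dusp6 and Dusp7 were lowest on the intralipid array.

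The nuclear phosphatases that act on several kinases were all higher with intralipid. Dusp1 (MKP-1; probe set 10449284) is an immediate early gene whose product dephosphorylates p38, JNK and ERK. Its log2 value was 8.78 (PBS), 12.44 (intralipid) and 9.20 (ANGPTL4). The intralipid array stood far above the other arrays, which lay 0.42 log2 units apart. Dusp1 was 12.6-fold higher with intralipid than with PBS, a difference that ranked 11 from the top among the 10018 genes, and 9.42-fold lower on the ANGPTL4 array than on the intralipid array, at rank 14 from the bottom among 10025.

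The stretch before the start of Dusp1 is shown because it holds the cyclic AMP response element, the binding site of CREB and related factors, for which the gene is known. It is the 250 bases upstream of the RefSeq start, chr17:26508473-26508722 on the minus strand of GRCm38.p6, with 68.4% G and C. Capitals mark the full element TGACGTCA, from 143 to 136 bases before the start, and a separate copy of its core, TGACGT, that begins 191 bases before it.
Dusp1: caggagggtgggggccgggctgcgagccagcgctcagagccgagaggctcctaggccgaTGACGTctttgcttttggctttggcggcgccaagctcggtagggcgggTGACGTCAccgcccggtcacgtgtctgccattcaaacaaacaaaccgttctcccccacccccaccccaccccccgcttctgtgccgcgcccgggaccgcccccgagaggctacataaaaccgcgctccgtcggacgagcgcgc

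Dusp2 (PAC-1; probe set 10475782), a nuclear phosphatase of ERK and p38 that is itself inducible in leukocytes, followed the same order at a smaller size. Its log2 value was 6.01 (PBS), 7.28 (intralipid) and 6.03 (ANGPTL4). The intralipid array was again the high one, and the other arrays differed by 0.02. Dusp2 was 2.42-fold higher with intralipid than with PBS and 2.38-fold lower on the ANGPTL4 array than on the intralipid array. Markers of T and NK cells, in which Dusp2 is also expressed, were below the floor on all 3 arrays. Which cells gave the Dusp2 signal was not tested.

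Dusp4 (MKP-2; probe set 10571312), a nuclear phosphatase of ERK and JNK, was the member that stayed well above PBS on the ANGPTL4 array. Its log2 value was 6.70 (PBS), 9.07 (intralipid) and 8.10 (ANGPTL4). The array with ANGPTL4 lay between the others, nearer to intralipid than to PBS. Dusp4 was 5.17-fold higher with intralipid than with PBS. With ANGPTL4 it was 1.96-fold lower than on the intralipid array, a log2 difference of -0.97 just inside the threshold, and 2.64-fold higher than with PBS, where it ranked 38 from the top among 9960 genes. After quantile normalization the difference from the intralipid array was -1.01 and passed 2-fold.

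The ERK-preferring phosphatases went in different directions. Dusp5 (probe set 10463945) is the nuclear member of this group and a known ERK-inducible feedback inhibitor. Its log2 value was 6.17 (PBS), 8.54 (intralipid) and 6.17 (ANGPTL4). The intralipid array alone was high, and the other arrays held the same deposited value. Identical values on several arrays were common in this table: 24.9% of the 10057 genes past the floor on any array held 1 value on all 3. Dusp5 was 5.18-fold higher with intralipid than with PBS, at rank 46 from the top, and 5.18-fold lower on the ANGPTL4 array than on the intralipid array, at rank 44 from the bottom.

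The upstream stretch of Dusp5 is shown because it holds a pair of CArG boxes, the core of the serum response element bound by serum response factor, side by side. It covers chr19:53528895-53529144 on the plus strand of GRCm38.p6, the 250 bases before the RefSeq start, with 64.0% G and C. The long run in capitals is both boxes, from 82 to 73 and from 72 to 63 bases before the start, and the shorter run is a core TGACGT on the opposite strand, from 56 to 51 bases before it.
Dusp5: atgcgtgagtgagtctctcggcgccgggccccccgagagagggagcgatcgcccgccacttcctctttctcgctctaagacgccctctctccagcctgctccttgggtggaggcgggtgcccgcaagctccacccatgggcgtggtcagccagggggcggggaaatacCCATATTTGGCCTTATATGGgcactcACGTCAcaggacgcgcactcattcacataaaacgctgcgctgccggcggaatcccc

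Dusp6 (MKP-3; probe set 10366043) and Dusp7 (probe set 10588495) are the cytoplasmic ERK phosphatases among the 10 members, and both were lowest on the intralipid array. The log2 value of Dusp6 was 8.18 (PBS), 7.77 (intralipid) and 8.09 (ANGPTL4), and that of Dusp7 was 8.09, 6.79 and 7.71 in the same order. For both genes PBS was the highest array and ANGPTL4 lay between. Dusp7 was 2.46-fold lower with intralipid than with PBS, at rank 47 from the bottom among the 10018 genes, and with ANGPTL4 it was 1.90-fold higher than on the intralipid array, a log2 difference of 0.93 that did not reach 2-fold. Dusp6 was 1.33-fold lower with intralipid than with PBS and 1.25-fold higher on the ANGPTL4 array than on the intralipid array. Of the 3 ERK-preferring members, 1 was thus higher and 1 lower with intralipid by 2-fold or more, with a median of -0.41.

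The phosphatases that prefer p38 and JNK were all above their PBS level with intralipid, 2 of the 3 by at least 2-fold, with a median of 1.07. Dusp10 (MKP-5; probe set 10352448), which dephosphorylates p38 and JNK and spares ERK, had the largest difference of the family. Its log2 value was 5.32 (PBS), 9.23 (intralipid) and 5.36 (ANGPTL4). The PBS and ANGPTL4 values were close to the floor, and the intralipid array stood alone. Dusp10 was 15.1-fold higher with intralipid than with PBS and 14.6-fold lower on the ANGPTL4 array than on the intralipid array. These differences ranked 7 from the top among 10018 genes and 6 from the bottom among 10025.

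The upstream stretch of Dusp10 is printed as that of the member with the largest difference, for comparison with Dusp1 and Dusp5. It covers chr1:184034131-184034380 on the plus strand of GRCm38.p6, with 59.6% G and C. It holds no capitals because neither the cyclic AMP response element, nor its core, nor a CArG box was found in it.
Dusp10: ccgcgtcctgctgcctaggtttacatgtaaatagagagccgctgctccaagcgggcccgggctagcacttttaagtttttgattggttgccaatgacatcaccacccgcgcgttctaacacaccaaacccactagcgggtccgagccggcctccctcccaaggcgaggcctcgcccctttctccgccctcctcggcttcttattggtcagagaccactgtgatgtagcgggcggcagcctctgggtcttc

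Dusp8 (probe set 10569280), another phosphatase of p38 and JNK, had a log2 value of 5.70 (PBS), 6.77 (intralipid) and 5.10 (ANGPTL4). The ANGPTL4 array was the lowest and lay just above the floor. Dusp8 was 2.10-fold higher with intralipid than with PBS and 3.18-fold lower on the ANGPTL4 array than on the intralipid array. Against PBS it was 1.52-fold lower with ANGPTL4, at rank 44 from the bottom among 9960 genes. A second probe set of Dusp8 (10569278) read 4.59, 5.12 and 4.20, in the same order and at the floor on the intralipid array alone, so it differed by 1.44-fold and 1.89-fold in these comparisons. With both probe sets averaged, the log2 difference from PBS was 0.80 in place of 1.07, which is short of 2-fold.

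The promoter of Dusp8 held the full cyclic AMP response element at a pair of places, and the bases around each are shown for comparison with Dusp1, with the element in capitals. They lie 107 to 100 and 63 to 56 bases before the RefSeq start, at chr7:142095374-142095401 and chr7:142095330-142095357 on the minus strand of GRCm38.p6.
Dusp8 far: cccgctccgcTGACGTCAcctgcccccg
Dusp8 near: tggctgcaggTGACGTCAggggcttttt

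Dusp16 (MKP-7; probe set 10548735), a phosphatase of JNK and p38 that shuttles between nucleus and cytoplasm, had a log2 value of 5.72 (PBS), 6.54 (intralipid) and 6.19 (ANGPTL4). As with Dusp4, the ANGPTL4 array lay between the others and nearer to intralipid. Dusp16 was 1.76-fold higher with intralipid than with PBS, 1.28-fold lower on the ANGPTL4 array than on the intralipid array and 1.38-fold higher with ANGPTL4 than with PBS, so it was at no point 2-fold apart.

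Dusp14 (MKP-6; probe set 10389238), an atypical phosphatase without the kinase docking domain, had a log2 value of 5.20 (PBS), 5.37 (intralipid) and 5.16 (ANGPTL4). All 3 values lay within 0.22 log2 units of each other and close to the floor. It was the member with the smallest differences from intralipid, 1.13-fold from PBS and 1.16-fold from intralipid plus ANGPTL4.

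**Figure D2:**
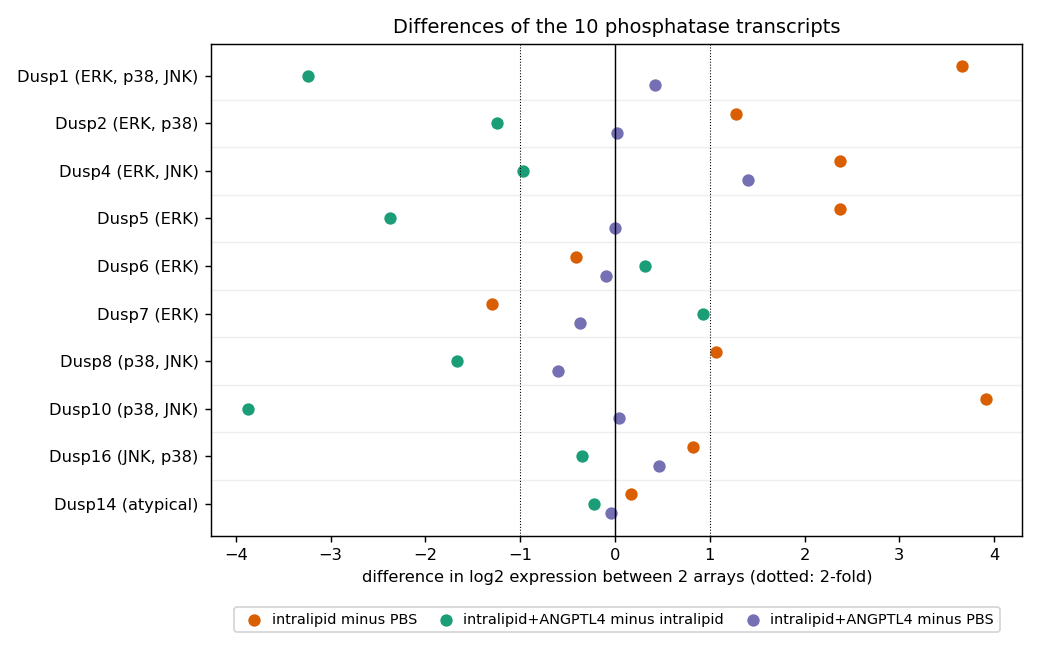
Difference in log2 expression (horizontal axis) of each of the 10 phosphatases (vertical axis, with preferred kinases) in the 3 comparisons of arrays, 1 point per comparison and dotted lines at 2-fold. Dusp10 spans 3.91 to -3.87, Dusp7 lies on the opposite side (-1.30 and 0.93), and Dusp4 alone is past 2-fold between intralipid plus ANGPTL4 and PBS (1.40).

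**Figure D3:**
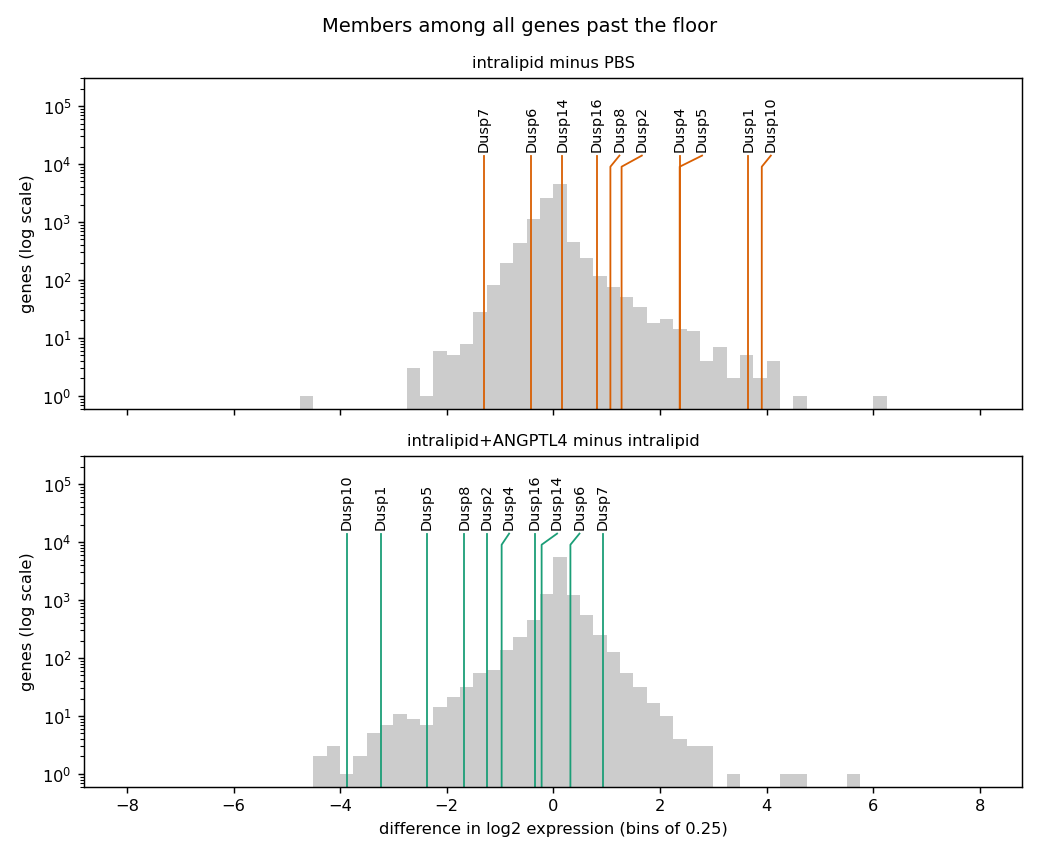
Number of genes (vertical axis, log scale) by difference in log2 expression (horizontal axis, bins of 0.25), above for intralipid minus PBS (10018 genes) and below for intralipid plus ANGPTL4 minus intralipid (10025 genes), with lines at the 10 phosphatases. Dusp10 and Dusp1 lie in the sparse upper tail above (3.91 and 3.66) and the lower tail below (-3.87 and -3.24), while Dusp6 and Dusp14 lie near the bulk.

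Promoter windows of RefSeq were given for 9 of the 10 members, each running from 250 bases before to 50 bases after the start; Dusp4 had none. The motifs were searched on both strands in these windows and in all 32851 windows of the same length. The full element TGACGTCA was found in 2 of the 9 (Dusp1 and Dusp8) and in 1.79% of all windows. Its core TGACGT, which every full element contains, was found in 3 (Dusp1, Dusp5 and Dusp8) and in 7.51% of all. The CArG box was found in Dusp5 and in 1.63% of all windows. The AP-1 site TGANTCA (7.81% of all), the NF-kB site (8.46%) and TGATGNAA, a form of the element bound by ATF4 with CHOP (3.97%), were found in 0 of the 9. The GC box GGGCGG was found in 8 of the 9, all but Dusp6, and in 35.7% of all. These matches are letters in a window and no measurement of binding, and the motifs were picked with the expression values known. Dusp10 and Dusp2, both at least 2-fold higher with intralipid, held GC boxes and none of the other motifs.

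**Figure D4:**
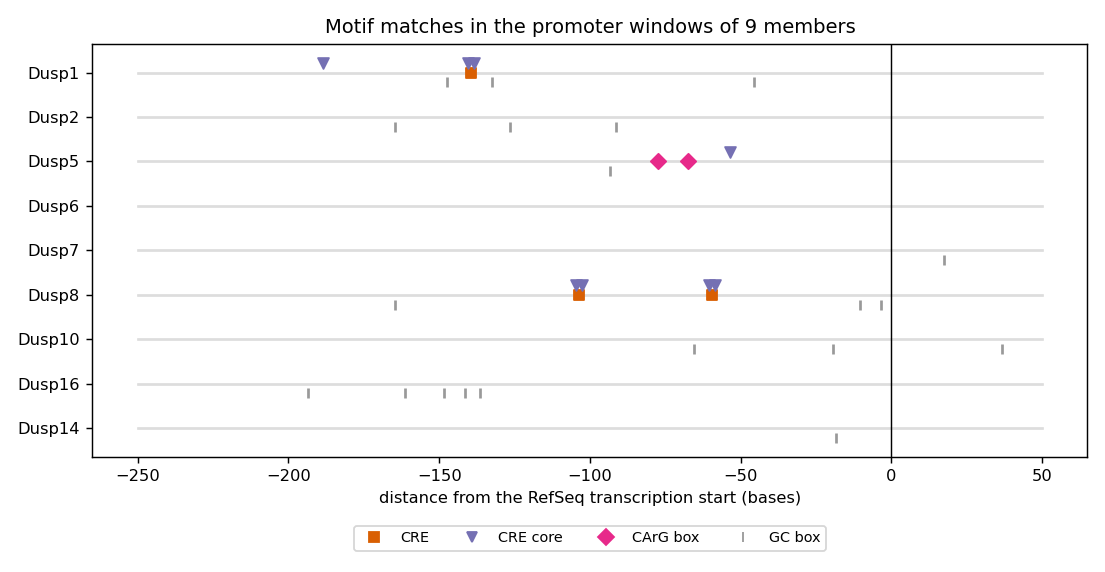
Position of motif matches (horizontal axis, bases from the RefSeq start) in the promoter windows of 9 phosphatases (vertical axis), with symbols for the full cyclic AMP response element (CRE), its core, the CArG box and the GC box. The full element appears 143 bases before the start of Dusp1 and at 107 and 63 bases before that of Dusp8, and the CArG boxes in Dusp5 alone.

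The genes whose pattern over the 3 arrays lay nearest to a member were found by the distance between pairs of log2 differences from PBS (intralipid, and intralipid plus ANGPTL4), among the 10057 genes past the floor on any array. Nearest to Dusp1 were Tnfaip6 (distance 0.11 log2 units), Ier3 (0.25), Il6 (0.38), Dusp10 (0.46) and Ifrd1 (0.46). Nearest to Dusp10 were Il6 (0.15), the cytokine gene Osm (0.16), Tnfaip6 (0.35), Lsmem1 (0.37) and Inhba (0.39). Nearest to Dusp5 were the glycosyltransferase gene B3gnt5 (0.03), Sesn2 (0.15), Fam71f2 (0.17), Ddit4 (0.19) and the histone gene H4c4 (0.20), whose near-identical copies may share probes. Of these genes, Tnfaip6, Il6, Lsmem1 and B3gnt5 were past the floor on no array but that with intralipid. A likeness over 3 arrays is a description and says nothing of shared control.

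The rest of the phosphatase family was mostly flat. Of 16 other dual-specificity phosphatases, 10 reached the floor on an array, with a median difference of 0.00 between intralipid and PBS. Dusp13, whose locus encodes testis and muscle enzymes, was 2.27-fold higher with intralipid (log2 values of 5.83 (PBS), 7.02 (intralipid) and 5.70 (ANGPTL4)) and 2.49-fold lower on the ANGPTL4 array than on the intralipid array. Dusp22, an atypical phosphatase known to act on JNK signalling, was 2.02-fold lower with intralipid than with PBS (7.44, 6.42 and 7.19). The other 8 did not reach 2-fold between intralipid and PBS, and 4 of the 10 held identical values on those arrays. Over all genes, 2.52% were higher and 1.33% lower by this count. Dusp9, a cytoplasmic ERK phosphatase as Dusp6 and Dusp7 are, did not share their low value with intralipid (5.59, 5.63 and 5.59). Phosphatases of MAP kinases from other families had 6 of 8 genes past the floor and 0 at 2-fold. Their largest difference was in Ptpn7, a tyrosine phosphatase of ERK and p38, at 1.80-fold lower with intralipid (7.00, 6.15 and 7.00).

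Among the kinases these enzymes act on, Mapk14, which encodes p38 alpha, differed in the direction opposite to most of the phosphatases. Its log2 value was 7.80 (PBS), 6.57 (intralipid) and 8.14 (ANGPTL4), which made it 2.35-fold lower with intralipid than with PBS and 2.97-fold higher on the ANGPTL4 array than on the intralipid array. The other 4 MAP kinase genes past the floor (Mapk6, Mapk7, Mapk8 and Mapk9) differed by -0.07 to 0.11 log2 units between intralipid and PBS.

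Few upstream kinases were 2-fold apart, and few genes were. Over all genes, 2.52% were higher and 1.33% lower with intralipid than with PBS by this count. Between the ANGPTL4 and intralipid arrays, 2.53% were higher and 2.30% lower. Counts of 0 in lists this small lie near these shares. The MAP2 kinases, which phosphorylate MAP kinases, had 5 genes past the floor and 0 at 2-fold, with Map2k3, an activator of p38, the farthest at 1.44-fold lower with intralipid than with PBS. Of 21 MAP3 kinases and their adaptors, 0 were 2-fold apart between intralipid and PBS (median -0.06). Map3k5, the stress-activated kinase ASK1, was 2.03-fold higher on the ANGPTL4 array than on the intralipid array (log2 values of 7.00 (PBS), 6.38 (intralipid) and 7.39 (ANGPTL4)). Of 6 kinases activated by MAP kinases, Mknk2, a kinase of the translation factor eIF4E, was 2.15-fold lower on the ANGPTL4 array than on the intralipid array (9.27, 10.09 and 8.98), and 0 were 2-fold apart between intralipid and PBS.

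Other inhibitors of the ERK pathway did not follow Dusp5 as a group. Past the floor were 5 genes, Errfi1 and otherwise Sprouty and Spred genes, of which 3 held identical values with PBS and intralipid. Errfi1, a feedback inhibitor of the EGF receptor, was 5.74-fold higher with intralipid than with PBS and 5.11-fold lower on the ANGPTL4 array than on the intralipid array (6.94, 9.46 and 7.10). Spred2 was highest on the ANGPTL4 array (6.20, 6.36 and 7.06).

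Genes known to be transcribed after ERK signalling were split. Of 8 past the floor, 4 were at least 2-fold higher with intralipid than with PBS and 0 lower, with a median of 0.85. Over all genes, 2.52% were higher and 1.33% lower by this count. The 4 were Ier3 (11.3-fold), Myc (3.02-fold), Phlda1 (2.36-fold) and the transcription factor Egr1 (2.05-fold). With ANGPTL4, Ier3 was 7.42-fold, Myc 2.70-fold and Egr1 2.17-fold lower than on the intralipid array, and Phlda1 1.93-fold lower. Epha2 and Etv4 entered the 8 through the intralipid array alone. The median of the other 6 was 1.13 between intralipid and PBS. Etv5, a transcription factor of the ETS family often read together with Dusp6 as an ERK output, lay below the floor with intralipid (5.57, 4.85 and 5.50), and its relative Etv4 reached it, barely, on the intralipid array alone (4.95, 4.99 and 4.75).

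Known targets of CREB were higher with intralipid than with PBS in 11 of 11 genes, 9 of them by at least 2-fold (median 1.83). They were lower on the ANGPTL4 array than on the intralipid array in 11 of 11, 9 by at least 2-fold (median -1.97). Over all genes, 23.5% were higher in the first comparison, 2.52% by at least 2-fold. In the second, 23.1% of all genes were lower, 2.30% by at least 2-fold. The CREB counts include 4 genes that reached the floor only on the intralipid array, where they had to be high. Of the 7 that reached it on the PBS or the ANGPTL4 array, 7 were higher with intralipid than with PBS, 6 by at least 2-fold (median 1.75), and 7 lower on the ANGPTL4 array than on the intralipid array, 5 by at least 2-fold (median -1.54). Against PBS, 3 of these 7 were above and 4 below with ANGPTL4. The nuclear receptor gene Nr4a1 was 8.62-fold higher with intralipid than with PBS and 8.45-fold lower on the ANGPTL4 array than on the intralipid array. The corresponding folds were 5.20 and 2.91 for Fos, 3.56 and 4.67 for the kinase gene Sik1, 3.36 and 3.91 for the clock gene Per1, and 2.18 and 2.45 for Crem, which encodes a repressor of the CREB family. The 4 genes were Fosb (24.1-fold and 20.8-fold), Ppargc1a (8.06-fold and 7.67-fold), Nr4a3 (3.80-fold and 4.19-fold) and Nr4a2 (1.97-fold and 2.52-fold), and their folds rest on values below the floor. Pde4b, a phosphodiesterase that breaks down cyclic AMP, stayed above PBS with ANGPTL4 (4.69, 6.44 and 5.71). Unlike Dusp4, it was below the floor with PBS, so it entered that comparison through the ANGPTL4 array alone, where it had to be high.

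**Figure D5:**
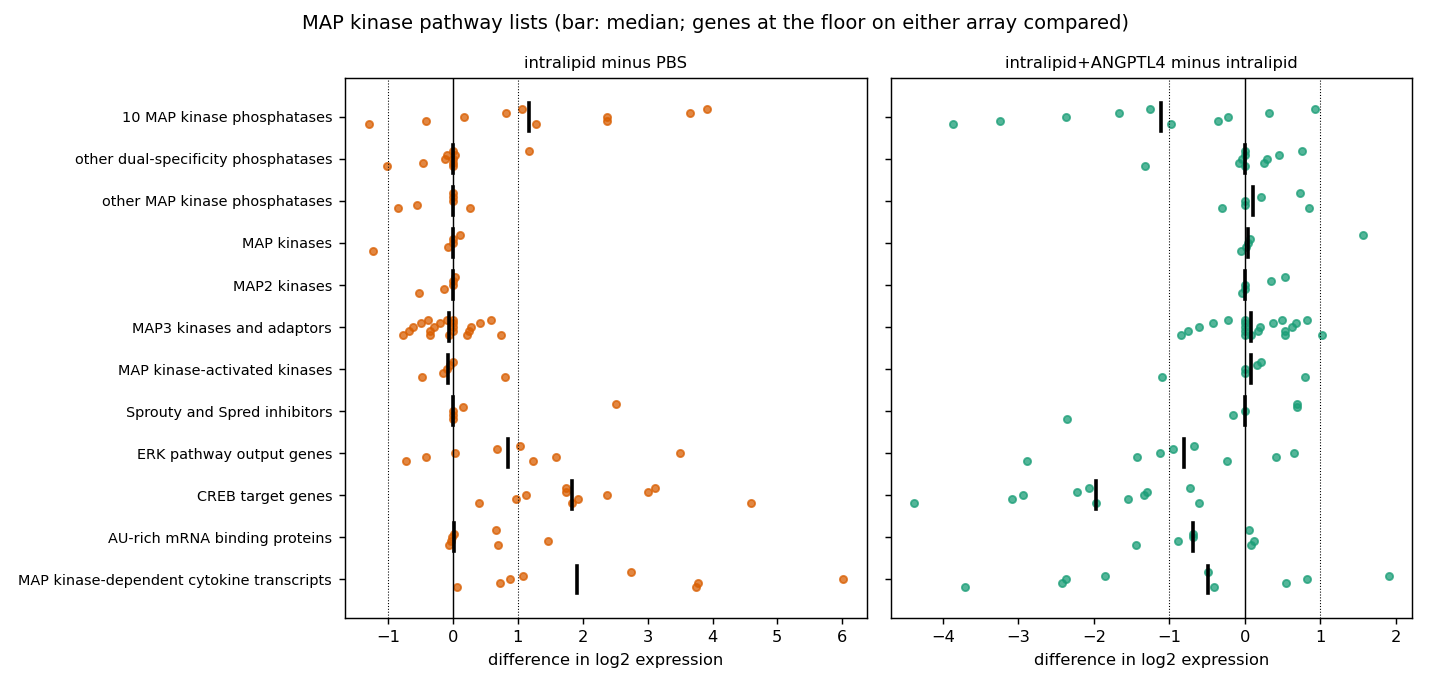
Difference in log2 expression (horizontal axes) for the genes of 12 lists of the MAP kinase pathway (vertical axis), left for intralipid minus PBS and right for intralipid plus ANGPTL4 minus intralipid, 1 point per gene at the floor on either array, a black bar at each list's median and dotted lines at 2-fold. The medians of the phosphatases (1.17 and -1.11) and of CREB targets (1.83 and -1.97) lie away from 0, as do those of ERK output genes (0.85 and -0.81) and cytokine transcripts (1.92 and -0.48), and those of the MAP2 kinases are 0.00 in both panels. Over genes at the floor on the PBS or the ANGPTL4 array, the medians were 1.75 and -1.54 for CREB targets. They were 1.13 and -1.03 for ERK output genes and 0.98 and -0.44 for cytokine transcripts. The 0.98 includes Il1b, which was below the floor on both arrays compared.

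Transcripts that MAP kinases stabilise or induce in activated macrophages are the output that Dusp1 is known to restrain. Zfp36, which encodes the mRNA-destabilising protein tristetraprolin, was 2.74-fold higher with intralipid than with PBS and 2.71-fold lower on the ANGPTL4 array than on the intralipid array (8.40, 9.86 and 8.42), while the other 6 proteins that bind AU-rich mRNA were less than 2-fold apart in either comparison. Among cytokines and related genes, 8 of 8 past the floor were higher with intralipid than with PBS, 5 by at least 2-fold: Cxcl2 (64.6-fold), Il6 (13.6-fold), Ptgs2 (13.4-fold), Cxcl1 (6.71-fold) and Tnf (2.12-fold). Il6 was below the floor on the other arrays, so it entered these counts through the intralipid array alone, where it had to be high. Cxcl2 was below the floor on the PBS array. At the floor on the PBS or the ANGPTL4 array were 8 genes, with Il1b in place of Il6. All 8 were higher with intralipid than with PBS, 4 by at least 2-fold (median 0.98). Il1b, however, was below the floor on both arrays of this comparison and entered through the ANGPTL4 array alone. Among the 10018 genes at the floor on either of these arrays, 23.5% were higher, 2.52% by at least 2-fold. With ANGPTL4, 4 genes of the list were at least 2-fold lower than on the intralipid array and 1 was higher. The shares over all genes were 2.30% lower and 2.53% higher. Without Il6, 3 genes of the list were lower and 1 higher. Tnf was the higher one, at log2 values of 7.53 (PBS), 8.61 (intralipid) and 10.52 (ANGPTL4), so it was 3.77-fold above the intralipid array. Any link between these transcripts and the phosphatases was not tested. Ptgs2 (5.17-fold), Cxcl2 (5.35-fold), Cxcl1 (3.61-fold) and Il6 (13.1-fold) were lower. Against PBS, 8 of 8 genes past the floor on either array were higher with ANGPTL4, 4 by at least 2-fold, with a median of 0.99. The 4 were Cxcl2 (12.1-fold), Tnf (7.99-fold), Ptgs2 (2.60-fold) and Il1b (2.14-fold), so Cxcl2 and Ptgs2 lay between the PBS and intralipid arrays. Cxcl2 and Il1b entered this comparison through the ANGPTL4 array alone, where they had to be high. Tnf and Ptgs2 reached the floor on both arrays. Over all genes, 35.5% were higher with ANGPTL4 than with PBS, 0.843% by at least 2-fold. Il1b, below the floor with PBS and with intralipid, was highest with ANGPTL4 (4.11, 4.38 and 5.21).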

How the data were processed

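Expression was measured on 3 Affymetrix arrays, 1 per group, each of RNA pooled from 3 samples. Total RNA with an integrity number above 8 was labelled (100 ng) in a whole-transcript assay, per the labels' protocols. The deposited values are log2 expression per probe set made by the authors with RMA, per the submitters' processing notes; the sources used here do not give its version, the chip definition or a genome build. The number of arrays limits the precision.

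Values were used as deposited. Of 35556 probe sets, 21789 had 1 gene symbol in the platform annotation, 1621 several and 12146 none. Genes were read from probe sets with 1 symbol, taking the highest mean over the arrays where a gene had more than 1. No test was possible with 1 array per group. Counts used a 2-fold threshold and the floor described above. The counting code was run on simulated data with known folds beyond the threshold, which checks the code and not the real arrays. The named genes were all members, the list genes at least 2-fold apart with intralipid against PBS or with ANGPTL4 against intralipid (otherwise the one farthest apart), and the 5 nearest patterns to Dusp1, Dusp10 and Dusp5. Dusp9, Spred2, Etv4, Etv5, Epha2, Il1b and the sequence motifs were chosen after values were seen. Members and lists were chosen with earlier results of these data known. Promoters came from RefSeq (GRCm38.p6), matched by symbol. Alternatives used limma 3.58.1 in R 4.3.3; other steps used Python 3.11.15 with pandas 2.3.3.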

Additional observations from a re-analysis of the deposited data

How the results depend on the processing

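The alternatives were thresholds of 1.5-fold and 3-fold, no floor, a floor at the 75th percentile, arrays centred on their medians, quantile normalization, cyclic loess and the mean of all probe sets of a gene. A floor over all annotated probe sets was added after seeing the data. Over these 9 settings, 4 to 7 members were higher with intralipid than with PBS, and 4 to 6 lower with ANGPTL4 than without it. At 1.5-fold, 1 member was higher with ANGPTL4 than without it, and 2 members differed between ANGPTL4 and PBS, 1 of them lower. At 3-fold, 4 members differed between intralipid and PBS, 0 of them lower, and 0 differed between ANGPTL4 and PBS, 0 of them higher. At 1.5-fold, all genes gave 509 higher and 560 lower for intralipid against PBS, 830 and 498 for ANGPTL4 against intralipid, and 236 and 53 for ANGPTL4 against PBS. At 3-fold these were 117 and 20, 58 and 102, and 25 and 0. The change in counts follows from the threshold itself. Thresholds and floors cannot change a direction. Under centring, quantile normalization, cyclic loess and the mean of all probe sets, no member past 2-fold changed direction. These settings use the same 3 arrays and do not measure how cultures vary. Centring moved members by at most 0.04 log2 units, quantile normalization by 0.07 and cyclic loess by 0.01. The mean of all probe sets changed Dusp8 alone among the members, to 0.80, -1.29 and -0.50 in the order intralipid against PBS, ANGPTL4 against intralipid and ANGPTL4 against PBS. No paired analysis was possible because each group is 1 array. Signals near the floor limit Dusp14, Dusp8 with ANGPTL4, and Dusp10 with PBS and with ANGPTL4, on which its folds rest.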
